A study of Mus musculus with 6 samples.

Results

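A set of 10 genes that mark haematopoietic stem and progenitor cells, or act in their self-renewal, were followed through the 6 EML libraries of a study of KAI1. They are the surface markers Cd34 and Ly6a and the transcription factors Tcf7, Runx1, Meis1, Hoxa9, Myb, Hhex, Erg and Mycn. Each was found by matching the RefSeq accessions of the deposited RPKM tables to the gene symbol, and each had 1 entry, so that 10 of the 23146 entries are described. RPKM is a read count divided by transcript length and by library size. EML is a mouse bone marrow progenitor line, immortalised with a dominant-negative retinoic acid receptor and able to give erythroid, myeloid and mast cells. All 6 libraries came from EML cells of strain BDF1 in medium with 20% serum and stem cell factor at 200 ng/ml. They were labelled as wildtype knockdown control (2 libraries), KAI1 knockdown (2), wildtype overexpression control (1) and KAI1 overexpression (1). KAI1 is the tetraspanin encoded by Cd82. The labels state neither how KAI1 was lowered or raised nor whether lines were clones or replicates separate cultures. Spread between replicates, and hence each p-value, may therefore be technical.

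CD34 is a sialomucin on the surface of haematopoietic progenitors, and Ly6a encodes Sca-1, the GPI-anchored antigen used with KIT to sort mouse stem cells. RUNX1, ERG, MYB, MEIS1 and HOXA9 are DNA-binding factors that establish or maintain haematopoietic stem cells, HHEX is a homeobox factor of early haematopoiesis, and MYCN is a MYC family protein that can act beside MYC in stem cells. TCF7, or TCF-1, is a partner of beta-catenin best known in T cells. In EML cultures, CD34-positive cells that renew themselves coexist with CD34-negative cells that do so poorly, and TCF7 and RUNX1 have been described as regulators of the switch between them. In a bulk library, fewer cells of a type and less RNA per cell cannot be told apart.

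The 250 bases before the RefSeq transcription start are shown for Cd34, Tcf7 and Myb on build GRCm38.p6. The levels of these genes followed each other closely over the libraries. Hhex followed them about as closely, and its stretch is not shown. The table held a start for 9 of the 10 genes, at 13 starts in all, and none for Ly6a. Each stretch was searched on both strands for 6 short motifs. The letters were CTTTGA for the TCF and LEF factors and TGTGGT for the RUNX factors. They were AGATAA for the GATA factors and GGAAGT for the ETS factors, including ERG. The last were TGACAG for the MEIS factors and the palindrome CACGTG for the MYC proteins. Matches are in capitals, and none of them overlap each other in the sequences printed. Tcf7 has 2 starts in the table, of which the one with a match is shown.
Cd34, chr1:194938571-194938820, plus strand: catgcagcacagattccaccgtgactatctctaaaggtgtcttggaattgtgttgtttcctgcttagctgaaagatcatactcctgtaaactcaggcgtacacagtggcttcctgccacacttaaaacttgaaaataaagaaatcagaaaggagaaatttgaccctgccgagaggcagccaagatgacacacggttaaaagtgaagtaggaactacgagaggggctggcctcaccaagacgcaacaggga
Tcf7, chr11:52282596-52282845, minus strand: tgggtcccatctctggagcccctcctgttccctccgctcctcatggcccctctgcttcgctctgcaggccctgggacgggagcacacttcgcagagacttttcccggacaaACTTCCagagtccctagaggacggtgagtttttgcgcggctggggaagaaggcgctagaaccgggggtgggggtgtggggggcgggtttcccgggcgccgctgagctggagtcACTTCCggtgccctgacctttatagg
Myb, chr10:21160985-21161234, minus strand: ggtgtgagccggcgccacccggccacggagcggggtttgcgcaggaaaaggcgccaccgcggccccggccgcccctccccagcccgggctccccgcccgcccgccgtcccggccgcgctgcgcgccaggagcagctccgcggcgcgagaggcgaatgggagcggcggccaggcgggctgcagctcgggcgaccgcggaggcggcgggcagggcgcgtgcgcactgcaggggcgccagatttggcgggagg
The Tcf7 stretch held the ETS letters at 2 places, beginning 139 and 26 bases before the start, and those of Cd34 and Myb held none of the 6 motifs. Among all 32851 starts of the same length, 19.7% held the ETS motif, 13.8% the TCF/LEF motif, 14.0% the RUNX motif, 9.99% the GATA motif, 15.9% the MEIS motif and 6.02% the MYC motif. Among the other members, matches were found before Meis1 (RUNX and ETS), Mycn (TCF/LEF), 1 start of Runx1 (MYC) and 1 start of Erg (GATA and, at 2 places, MEIS). A match is a string of letters and not a measured binding site.

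The targeted gene Cd82 measured 43.9 and 13.8 RPKM without knockdown, 7.65 and 6.91 RPKM with it, 11.9 RPKM in the overexpression control and 15.2 RPKM in the overexpression. Its knockdown difference was -1.64 (limma adjusted p = 0.83), and -0.84 without knockdown control 1. Depth estimated from the steps between low values ran from about 9590000 reads in knockdown control replicate 2 to 25100000 in the overexpression control. Knockdown control replicate 1 stood apart from its partner: of the 10113 entries tested, 12.8% were at least 2-fold higher in it and 8.56% at least 2-fold lower on the RPKM + 1 scale. Differences of members are therefore given with and without it. The labels call the cells basophils. All 15 of 15 mast cell and basophil marker genes were above 0 in at least 1 library. So were the 11 erythroid, 9 early neutrophil and monocyte and 5 megakaryocyte markers found. The basophil protease Mcpt8 stood between 116 and 3908 RPKM. Prss34, another protease of the list, stood at 4.2 RPKM in the KAI1 overexpression and at most at 0.719 RPKM elsewhere.

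Cd34 (chr1:196765015-196803153 on mm9) measured 0.859 and 64.7 RPKM without knockdown (controls 1 and 2, in that order here and below), 65.7 and 77.9 RPKM with it. The overexpression arm gave 66.4 RPKM for its control and 15.9 RPKM for the KAI1 library. Apart from knockdown control 1 and the KAI1 overexpression, which were lowest and next lowest, the libraries lay within 1.20-fold of each other. About 40 reads were estimated behind the lowest value, so that it is low but not at the limit of detection. The control mean was 32.8 ± 45.1 RPKM (SD, n = 2) and the knockdown mean 71.8 ± 8.66 RPKM (SD, n = 2). The knockdown difference was 2.71 on the log2(RPKM + 1) scale (SE 1.76, limma adjusted p = 0.83). With control 1 left out the difference shrank to 0.14 (adjusted p = 0.732), and with control 2 left out it was 5.29 (adjusted p = 0.0103), where the spread comes from the knockdown pair alone. The gap between the groups was narrow, at 65.7 against 64.7 RPKM, and closed when the libraries were rescaled by their median ratio.

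Ly6a (chr15:74825307-74828461) had another order. It measured 748 and 217 RPKM without knockdown, 95.9 and 205 RPKM with it, 125 RPKM in the overexpression control and 51.5 RPKM in the overexpression. It was highest in knockdown control 1, the library with the least Cd34, and lowest in the overexpression library, which came second lowest in Cd34. In every library at least 92.7% of all entries stood lower than Ly6a. Both knockdown libraries lay below both controls, with means of 151 ± 77.5 and 482.5 ± 375.5 RPKM (SD, n = 2 each). The gap between the groups was narrow, at 205 against 217 RPKM. The difference was -1.51 (SE 0.75, limma adjusted p = 0.83), and -0.62 without knockdown control 1 (adjusted p = 0.597). Ly6a lies in a cluster of related genes, and the rule for reads shared among them is not stated.

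Tcf7 (chr11:52066106-52095752) varied more than any other of the 10 genes. It measured 0.144 and 20.7 RPKM without knockdown, 31.4 and 16.4 RPKM with it, 83.3 RPKM in the overexpression control and 0.912 RPKM in the overexpression. The highest library was 578-fold above the lowest in RPKM, with about 5166 reads estimated in the former and 7 in the latter. The same pair of libraries was low as for Cd34, but the overexpression control stood 2.66 times as high as the next library, a gap that Cd34 did not have. Without knockdown control 1, the remaining control lay between the knockdown libraries. The knockdown difference was 2.25 (SE 1.48, limma adjusted p = 0.83), 0.13 without knockdown control 1 (adjusted p = 0.906) and 4.37 without knockdown control 2 (adjusted p = 0.0284). Lef1, the closest relative of Tcf7 that was detected above 1 RPKM, measured 0.776 and 3.11 RPKM without knockdown, 3.87 and 3.86 RPKM with it, and 6.06 against 2.41 RPKM in the overexpression arm. The knockdown difference of Lef1 was 0.85 (SE 0.47, limma adjusted p = 0.83), 0.24 without knockdown control 1 (adjusted p = 0.57) and 1.45 without knockdown control 2 (adjusted p = 0.0386). Its highest and lowest libraries were those of Tcf7, over a smaller range. Tcf7l1 reached at most 0.366 RPKM and Tcf7l2 at most 0.0145 RPKM, so Tcf7 was the most abundant member of its family in 4 libraries and Lef1 in the other two. Ctnnb1, which encodes beta-catenin, stood between 69.3 and 91.8 RPKM in all 6.

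**Figure D1:**
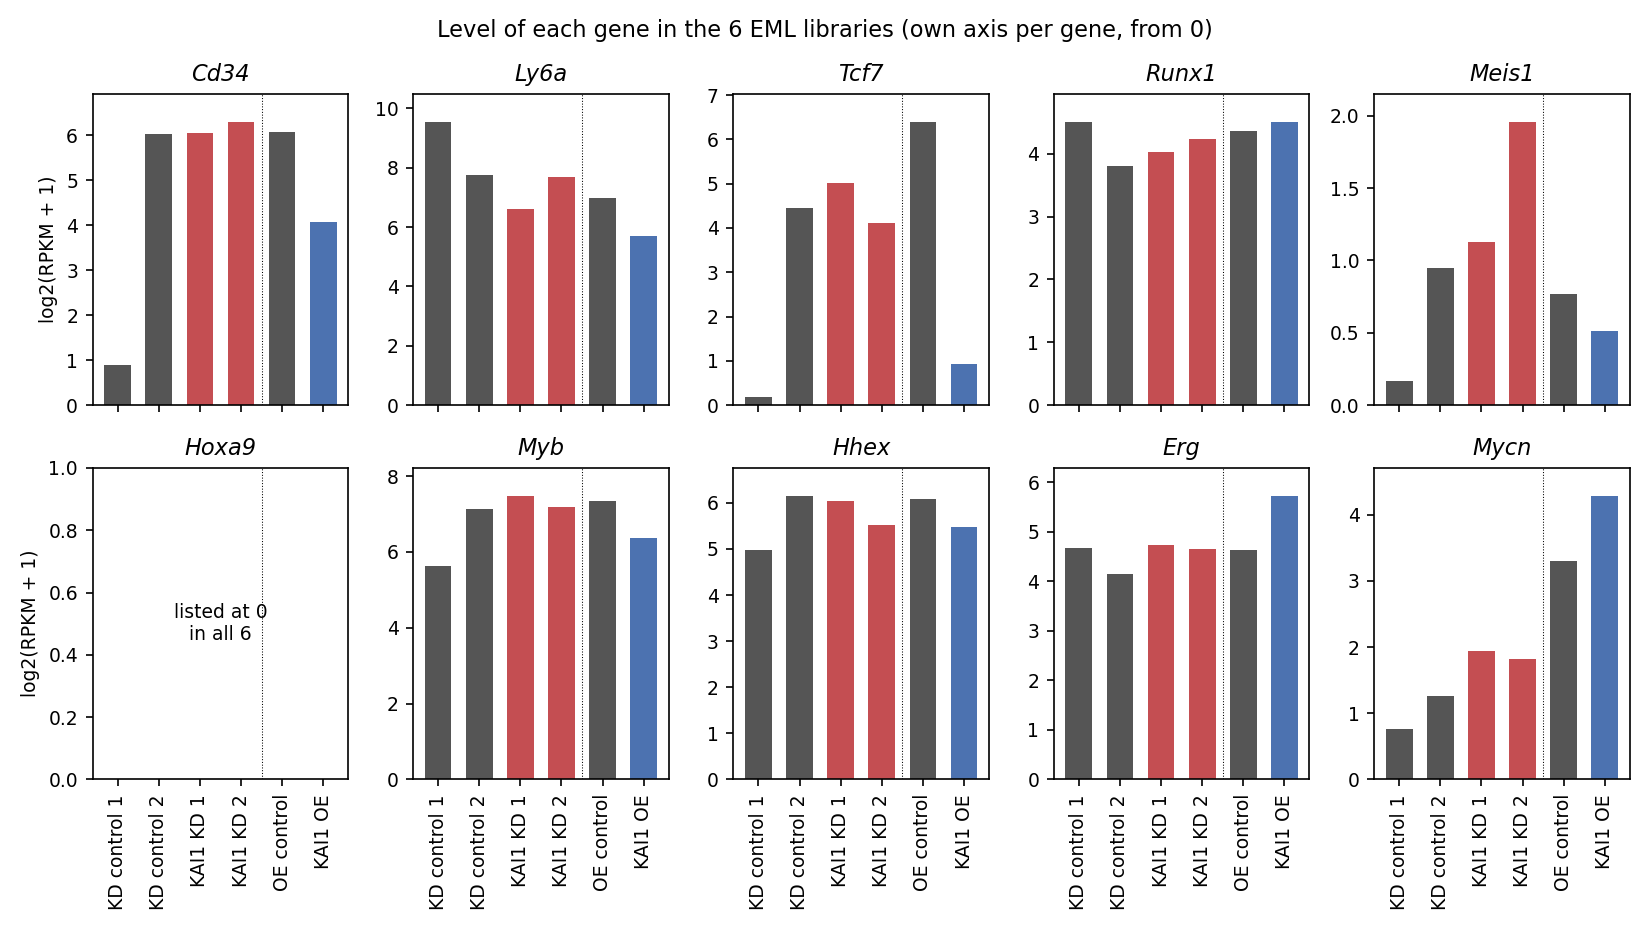
Level of each of the 10 genes as log2(RPKM + 1), 1 bar per library, with knockdown (KD) and overexpression (OE) arms parted by a dotted line; each panel has its own axis from 0. Cd34 and Tcf7 were lowest in knockdown control 1 and next lowest in the KAI1 overexpression, Runx1 stayed between 12.9 and 21.7 RPKM, and Hoxa9 was listed at 0 throughout.

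Runx1 (chr16:92601711-92826311) was the steadiest of the detected genes. It measured 21.7 and 12.9 RPKM without knockdown, 15.3 and 17.7 RPKM with it, 19.5 RPKM in the overexpression control and 21.7 RPKM in the overexpression. The highest library was 1.69-fold above the lowest, and both knockdown libraries lay between the controls. The knockdown difference was -0.03 (SE 0.33, limma adjusted p = 0.989), with 0.33 without knockdown control 1 (adjusted p = 0.497). Its DNA-binding partner Cbfb stood between 19.3 and 23.1 RPKM and its relative Runx3 between 11.3 and 19.2 RPKM. Runx2 measured 2.01 and 2.13 RPKM without knockdown, 3.16 and 4.49 RPKM with it, and 2.54 against 0.957 RPKM in the overexpression arm (knockdown difference 0.64, SE 0.27, limma adjusted p = 0.83).

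Erg (chr16:95581811-95751972), an ETS factor, measured 24.5 and 16.8 RPKM without knockdown, 25.7 and 24.4 RPKM with it, 23.7 RPKM in the overexpression control and 51.8 RPKM in the overexpression. The overexpression library was the highest and 2.02 times the next, while the other libraries lay from 16.8 to 25.7 RPKM and the knockdown groups overlapped. The knockdown difference was 0.29 (SE 0.28, limma adjusted p = 0.842), 0.55 without knockdown control 1 (adjusted p = 0.406) and 0.03 without knockdown control 2 (adjusted p = 0.908).

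Myb (chr10:20844736-20880790) measured 48.5 and 139 RPKM without knockdown, 176 and 145 RPKM with it, 161 RPKM in the overexpression control and 82.2 RPKM in the overexpression. It had the order of Cd34 at the low end, with knockdown control 1 below the overexpression library and both below the rest, but over a range of 3.64-fold. The gap between the knockdown libraries and their controls was narrow, at 145 against 139 RPKM. The knockdown difference was 0.95 (SE 0.57, limma adjusted p = 0.83), 0.20 without knockdown control 1 (adjusted p = 0.642) and 1.70 without knockdown control 2 (adjusted p = 0.033). Hhex (chr19:37509331-37515221) measured 30.6 and 69.7 RPKM without knockdown, 64.9 and 45.1 RPKM with it, 66.7 RPKM in the overexpression control and 43.5 RPKM in the overexpression. The knockdown libraries lay between the controls. The difference was 0.22 (SE 0.49, limma adjusted p = 0.925) and turned to -0.36 without knockdown control 1 (adjusted p = 0.573).

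Meis1 and Hoxa9 encode partners that bind DNA together. Meis1 (chr11:18780431-18918972) was low throughout, at 0.12 and 0.924 RPKM without knockdown, 1.18 and 2.88 RPKM with it, 0.703 RPKM in the overexpression control and 0.423 RPKM in the overexpression. Both knockdown values exceeded both control values, on 7 and 29 estimated reads in the controls and 48 and 178 in the knockdown. The difference was 0.99 (SE 0.47, limma adjusted p = 0.83), and 0.60 without knockdown control 1 (adjusted p = 0.549). Hoxa9 (chr6:52174053-52177369) was listed at 0 in all 6 libraries. At the estimated depths a count of 0 allows levels up to 0.037 RPKM in the deepest library and 0.0969 RPKM in the shallowest, taking 3 reads as the limit and counting error only. None of 8 common housekeeping genes was listed at 0 in any library. Small RNAs aside, 3 of 3314 entries with a median of at least 20 RPKM were at 0 in 1 or more libraries. Of 39 Hox entries, 27 were at 0 in all 6 libraries and 1, Hoxb4, reached 1 RPKM in any. The 11 Hoxa entries reached at most 0.064 RPKM. Hoxb4 measured 1.11 and 0.633 RPKM without knockdown, 0.611 and 0.543 RPKM with it, and 0.151 against 1.72 RPKM in the overexpression arm. Of the other HOX partners, Pbx2 stood between 10.3 and 15.6 RPKM, while Meis2 reached at most 0.0151 RPKM.

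Mycn (chr12:12942899-12948642) separated the arms. It measured 0.69 and 1.41 RPKM without knockdown, 2.83 and 2.52 RPKM with it, 8.87 RPKM in the overexpression control and 18.5 RPKM in the overexpression. Both libraries of the overexpression arm lay above all 4 of the knockdown arm, and in each arm the KAI1-altered libraries lay above their controls. The means were 1.05 ± 0.507 RPKM in the controls and 2.68 ± 0.22 RPKM in the knockdown (SD, n = 2 each). The difference was 0.87 (SE 0.31) with an unadjusted p of 0.0439 by limma, the only member below 0.05, and an adjusted p of 0.83. It was 0.61 without knockdown control 1 (adjusted p = 0.406). Myc measured 12.2 and 24.0 RPKM without knockdown, 23.5 and 36.4 RPKM with it, and 26.5 against 43.0 RPKM in the overexpression arm. Myc was above Mycn in every library, and the third member, Mycl, was listed at 0 in all 6.

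Of the 10 genes, 9 had a mean of at least 1 RPKM in the knockdown arm and were tested, Hoxa9 being left out. Limma called 0 of the 9, where it called 3 of all 10113 entries (0.0297%), 1 higher (0.00989%) and 2 lower (0.0198%), and 1 of the 9 had an unadjusted p below 0.05, against 3.32% of all entries. Both knockdown values exceeded both control values in 4 (Cd34, Meis1, Myb and Mycn), against 21.5% of all entries, and were below both in 1 (Ly6a), against 17.0%. The median difference was 0.87 over the 9 genes and 0.03 over all tested entries on the log2 scale. Without knockdown control 1 these medians were 0.20 and 0.03. Leaving out knockdown control 1 or knockdown replicate 1 turned the direction in Runx1 and Hhex, and either left 0 members called. Leaving out knockdown control 2 gave 3 calls, Cd34, Tcf7 and Myb, in a fit in which 1045 of all entries were called.

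**Figure D2:**
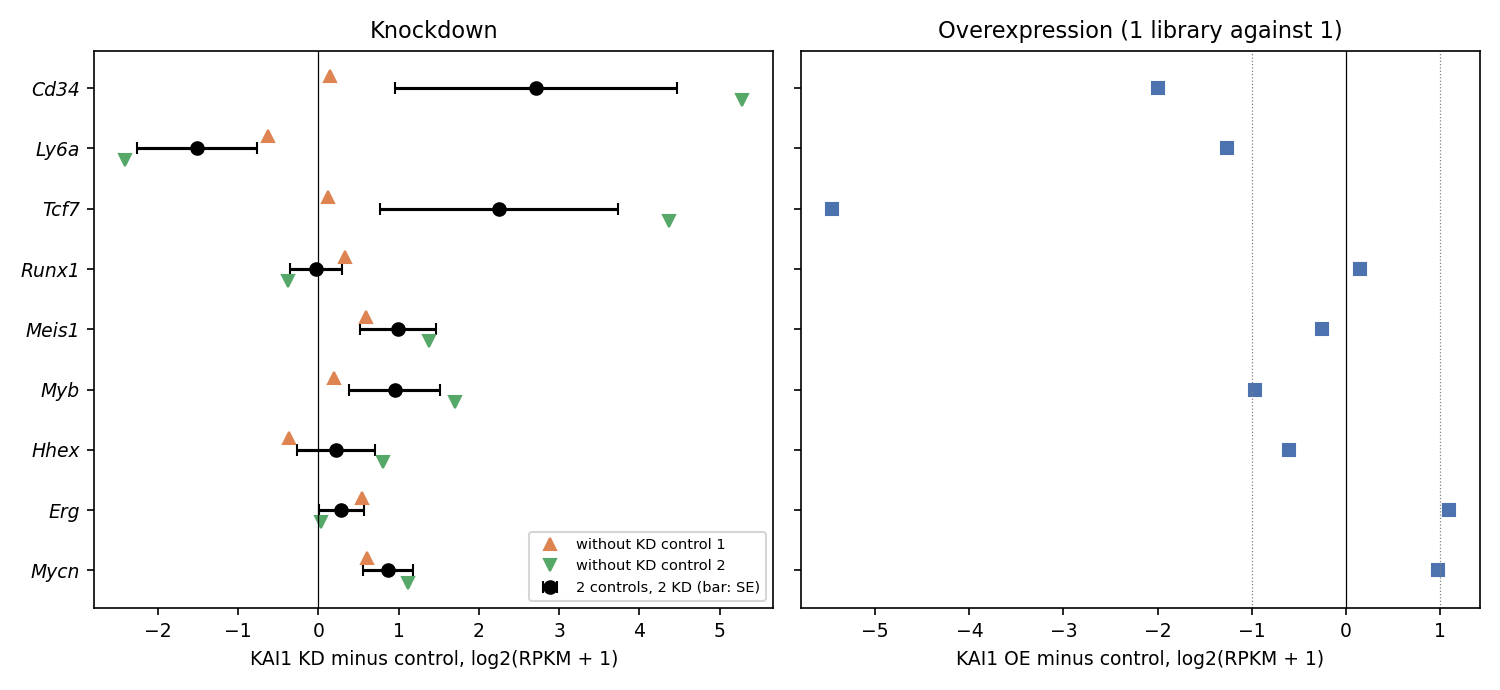
Differences of the 9 detected genes on the log2(RPKM + 1) scale; left, KAI1 knockdown (KD) minus control with its SE and the values without either control library, right, KAI1 overexpression (OE) minus control from 1 library each, with dotted lines at 2-fold. The knockdown difference of Cd34 moved from 0.14 to 5.29 with the control left out, while that of Mycn stayed between 0.61 and 1.12.

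KAI1 overexpression was measured once against a single control, so these ratios carry no replicate check. Of the 10 genes, 8 reached the 1 RPKM minimum on average; Meis1 and Hoxa9 did not. Of the 8, 3 were at least 2-fold lower in the overexpression on the RPKM + 1 scale, against 5.21% of all 9936 entries, and 1 at least 2-fold higher, against 4.92%. Tcf7 was 44.1-fold lower, Cd34 3.98-fold and Ly6a 2.41-fold lower, and Erg was 2.13-fold higher. Mycn at 1.97-fold higher and Myb at 1.95-fold lower lay just inside the 2-fold line. Hhex was 1.52-fold lower and Runx1 1.11-fold higher. The median log2 ratio was -0.79 over the 8 genes and 0.00572 over all entries. The controls of the 2 arms are separate libraries. Cd34, Tcf7, Myb and Hhex had a knockdown difference above 0 and an overexpression ratio below 0, Runx1 had the opposite pair of signs, Mycn and Erg were above 0 in both, and Ly6a was below 0 in both. The knockdown signs of Hhex and Runx1 turned without knockdown control 1.

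Across all 6 libraries, the highest was at least 2-fold above the lowest in 8 of 9 members on the RPKM + 1 scale, against 39.4% of entries, and at least 16-fold in Cd34 and Tcf7, against 2.55%. After the values were seen, members were counted in which knockdown control 1 and the KAI1 overexpression were both below the other 4 libraries. These were 5 (Cd34, Tcf7, Meis1, Myb and Hhex), against 15.3% of entries, and Hhex left this group after median-ratio scaling. In 1 member, Runx1, the same pair lay above the rest, against 15.3% of entries. As a description over 6 libraries, Pearson's r between log2 levels was 0.97 for Cd34 with Myb, 0.87 for Cd34 with Tcf7, 0.94 for Tcf7 with Myb, -0.64 for Cd34 with Runx1 and -0.56 for Cd34 with Ly6a. Hhex had r of 0.85 with Cd34, 0.88 with Tcf7 and 0.88 with Myb, and the most negative r was -0.85, for Ly6a with Mycn. In Cd34, Tcf7, Myb and Hhex the same pair of libraries was lowest, and all values share these 6 libraries.

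The sums of mast cell and basophil markers and of erythroid markers moved with this order. The 15 mast cell and basophil genes summed to 78292 RPKM in knockdown control 1 and 28061 RPKM in the KAI1 overexpression, and to between 6567 and 16693 RPKM in the other libraries. In 11 of the 15, that pair lay above the rest, against 15.3% of all entries. Fcer1a, the alpha chain of the IgE receptor, was listed at 0 in knockdown control 2 and KAI1 knockdown 1 and stood at 24.2 RPKM in knockdown control 1. The 11 of 12 erythroid genes found summed to 171 RPKM in knockdown control 1 and 696 RPKM in the overexpression, against 2241 to 2871 RPKM elsewhere. The beta globin gene Hbb-bt made up most of this sum in every library but knockdown control 1. The pair lay below the rest in 7 of 10 with a mean of at least 1 RPKM, against 15.3% of all entries. Gata1 and Epor were instead highest in knockdown control 1, at 87.25 and 15.6 RPKM. Both were lowest in the KAI1 overexpression, at 32.3 and 2.27 RPKM. The 9 early neutrophil and monocyte genes summed to between 921 and 1732 RPKM, and the same pair of libraries was lowest in 3 of the 5 with a mean of at least 1 RPKM (Mpo, Prtn3 and Lyz2), against 15.3% of all entries. Mpo, the neutrophil granule enzyme, stood at 7.84 RPKM in knockdown control 1 and 45.8 RPKM in the KAI1 overexpression, and between 469.8 and 750.3 RPKM elsewhere. Ctsg, the most abundant of the list, went the other way, at 1080 RPKM in knockdown control 1 and 1295 RPKM in the KAI1 overexpression. It stood between 433.9 and 1034 RPKM elsewhere, and the pair lay above the rest in 15.3% of all entries. Ly6c2 was lowest in knockdown control 1 (0.124 RPKM) and highest in the KAI1 overexpression (85.8 RPKM). The 5 of 6 megakaryocyte genes found summed to between 316 and 2348 RPKM. The KAI1 overexpression was the lowest library in this sum and knockdown control 1 the highest, where Pf4 stood at 1541 RPKM and Ppbp at 550 RPKM. Gp9 was low in that pair, at 0.959 RPKM in knockdown control 1 and 0.467 RPKM in the KAI1 overexpression. It stood between 26.9 and 43.65 RPKM elsewhere. It was the 1 gene, of the 4 with a mean of at least 1 RPKM, in which the pair lay below the rest, against 15.3% of all entries. The 9 lymphoid markers, of which Cd3e, Pax5 and Rag1 were at 0 in all 6 libraries, summed to at most 9.25 RPKM and the 5 of 6 macrophage and dendritic cell markers found to at most 6.95 RPKM. The 7 stromal and endothelial markers summed to between 44.3 and 74.97 RPKM, nearly all from Pdgfrb and Pecam1. The part of lineage composition in the levels of the 10 genes was not tested.

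**Figure D3:**
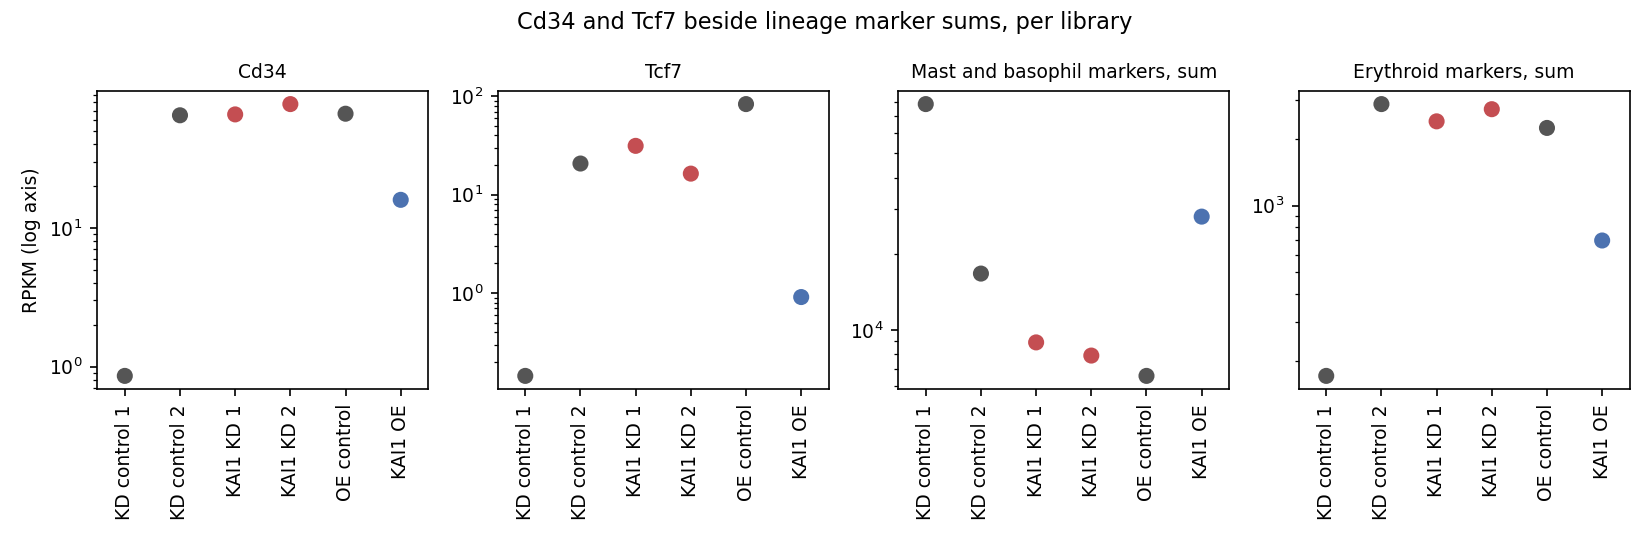
RPKM of Cd34 and Tcf7 and the summed RPKM of the mast cell and basophil and the erythroid marker genes in each library, on log axes (KD, knockdown; OE, overexpression). Knockdown control 1 and the KAI1 overexpression were the lowest in Cd34, Tcf7 and the erythroid sum and the highest in the mast cell sum.

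Other genes of stem and progenitor cells were taken from lists of related genes, and limma called 0 of their 45 tested entries in either direction, against 0.0297% of all entries. Among 14 surface receptors, 6 were tested, 2 with both knockdown values above both control values, against 21.5% of all entries, and 1 below, against 17.0%. Ly6e, a relative of Ly6a, was the most abundant, at 71.0 and 689 RPKM in the controls, 907 and 943 RPKM in the knockdown and 871 against 552 RPKM in the overexpression arm. Its low library was the one in which Ly6a was highest. Cd93 had the largest overexpression ratio, at 0.321 against 6.61 RPKM. Kit, which is also in the mast cell list, stood between 83.3 and 437 RPKM. Prom1 and Tek were listed at 0 in all 6 libraries, and Flt3 reached at most 0.358 RPKM.

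**Figure D4:**
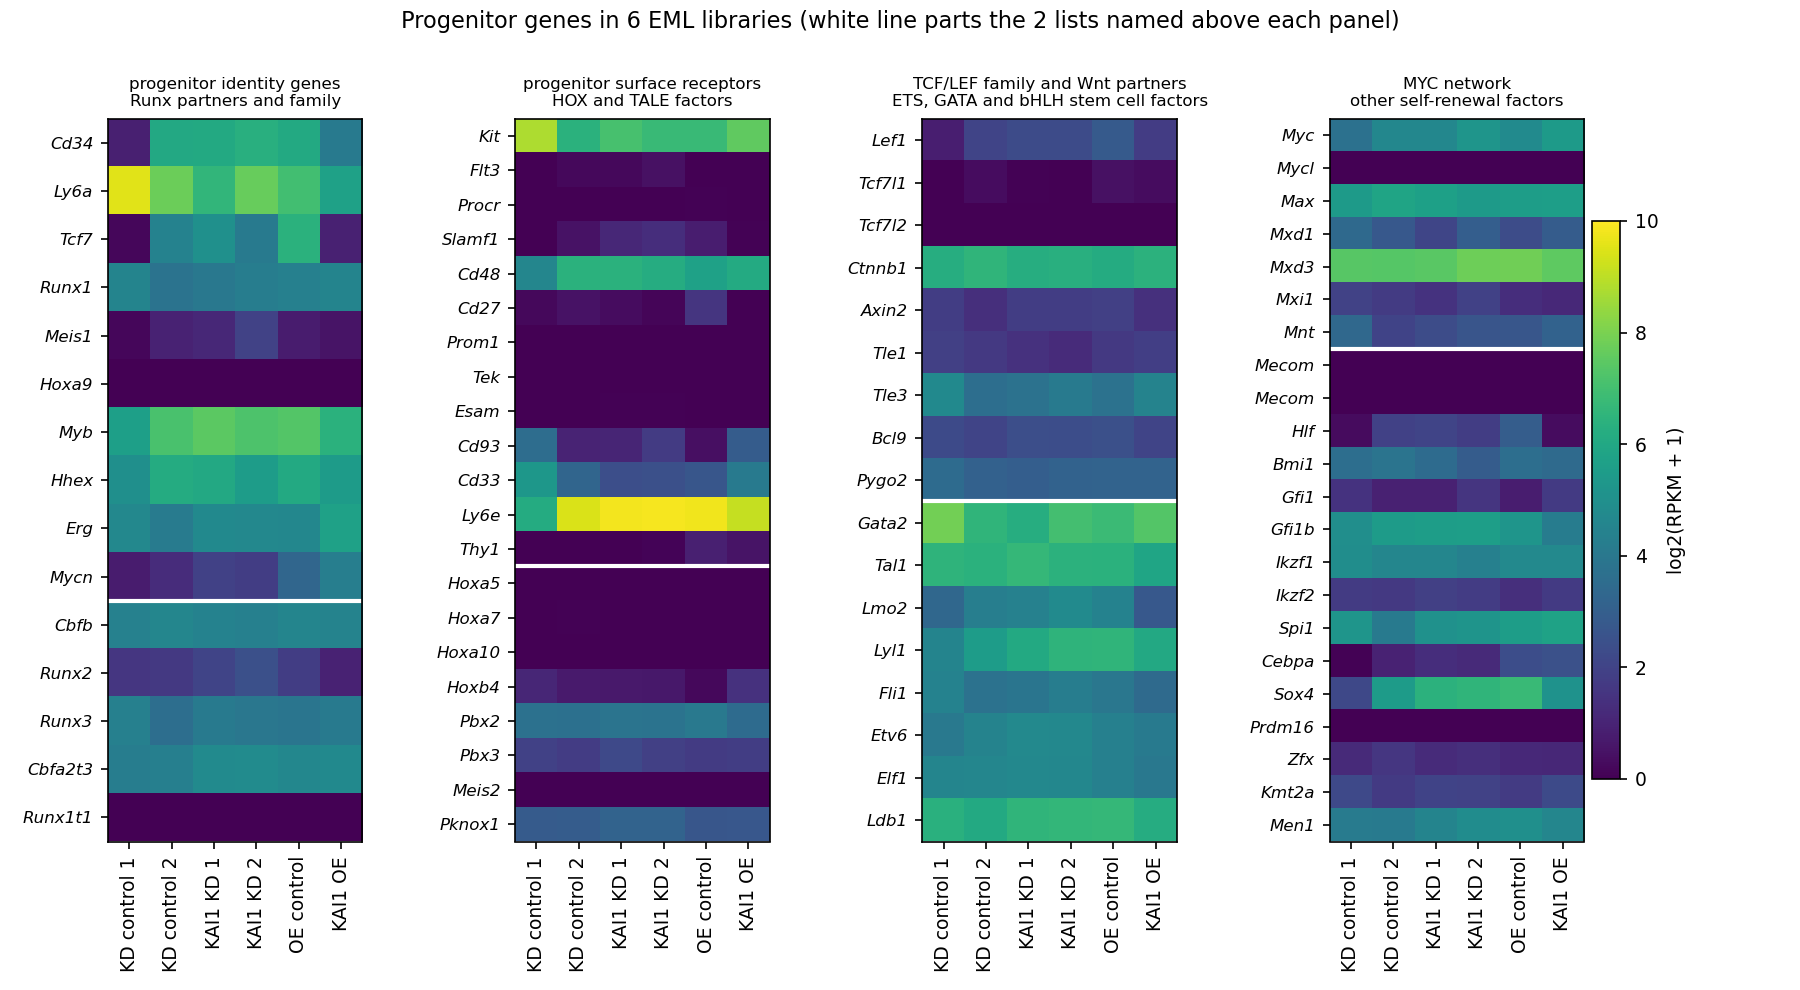
Level of the 10 genes and of the genes reported from the related lists as log2(RPKM + 1) in each library (KD, knockdown; OE, overexpression), with a white line between the lists named above each panel. The Hoxa genes, Prom1, Tek, Mecom and Prdm16 stood at or near 0 in all 6 libraries, and Sox4, Hlf and Lef1 shared the low knockdown control 1 of Cd34.

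All 8 ETS, GATA and bHLH factors were tested, and in 5 both knockdown values exceeded both control values, against 21.5% of all entries, with a median difference of 0.24. Lyl1, a bHLH factor, measured 21.7 and 45 RPKM without knockdown, 66.6 and 89.4 RPKM with it and 92.5 against 64.8 RPKM in the overexpression arm (difference 1.27, SE 0.44, limma adjusted p = 0.83). It was 0.77 without knockdown control 1 (adjusted p = 0.406) and 1.78 without knockdown control 2 (adjusted p = 0.0414). Lmo2, which bridges TAL1 and GATA factors, stood at 20.7 against 5.79 RPKM in the overexpression arm, the largest ratio of its list. Gata2 was the most abundant, between 74.3 and 235 RPKM, and was highest in knockdown control 1 and the KAI1 overexpression. Of 11 tested entries among other self-renewal factors, 4 lay above both controls, against 21.5% of all entries, and 2 below, against 17.0%. Sox4 measured 3.44 and 43.5 RPKM without knockdown, 84.1 and 93.2 RPKM with it and 110 against 33.0 RPKM in the overexpression arm (difference 2.67, SE 1.15, limma adjusted p = 0.83). It was 1.01 without knockdown control 1 (adjusted p = 0.406) and 4.33 without knockdown control 2 (adjusted p = 0.0116). Hlf, a bZIP factor of stem cells, measured 0.231 and 2.84 RPKM without knockdown, 3.17 and 2.55 RPKM with it and 6.69 against 0.26 RPKM in the overexpression arm. Mecom and Prdm16, which encode related stem cell factors, were listed at 0 in all 6.

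In the smaller lists, both knockdown values exceeded both control values in 2 of 4 RUNX partners, 2 of 7 TCF/LEF and Wnt genes, 2 of 3 HOX and TALE factors and 1 of 6 MYC network genes, against 21.5% of all entries. They lay below both in 1 of the 7 TCF/LEF and Wnt genes, against 17.0%. Median differences were 0.29, -0.12, 0.20 and -0.12 in that order, and 0.45, 0.24, 0.28 and 0.10 without knockdown control 1. Cbfa2t3, a corepressor of the RUNX list, measured 17.6 and 19.1 RPKM without knockdown, 26.5 and 27.6 RPKM with it (difference 0.54, SE 0.22, limma adjusted p = 0.83). Pknox1, a TALE factor, stood at 6.24 and 6.47 against 8.12 and 8.19 RPKM (difference 0.32, limma adjusted p = 0.83). Mxd3, a MAX partner and the most abundant of the MYC list, stood between 164 and 226 RPKM.

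Entries were ranked by how closely they followed Cd34, Tcf7 or Ly6a over the 6 libraries, as the root mean square difference of log2(RPKM + 1) centred on each gene's mean, among 10054 entries. Nearest to Cd34 were Hbb-bt, a beta globin gene (0.17), Hemgn, an erythroid nuclear factor (0.29), both entries of the alpha globin gene Hba-a2 (0.35 and 0.35) and Pglyrp1 (0.40). Hbb-bt stood at 57.5 RPKM in knockdown control 1, 624 RPKM in the KAI1 overexpression and 1898 to 2304 RPKM elsewhere. Reads of globin genes may be divided arbitrarily between near-identical copies. Tcf7 had no neighbour as close: Fgf3 (0.73), an entry without a symbol (0.74), Mpo (0.79), Serpinf1 (0.81) and Syne4 (0.86). Nearest to Ly6a were Mir3471-1 (0.25), an entry for a small RNA listed with a longer span, Il6ra (0.34), Mfsd6 (0.34), Vwa7 (0.38) and Sapcd1 (0.40). Il6ra, the interleukin 6 receptor, measured 11.96 and 2.80 RPKM without knockdown, 1.36 and 2.85 RPKM with it and 2.99 against 0.467 RPKM in the overexpression arm.

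**Figure D5:**
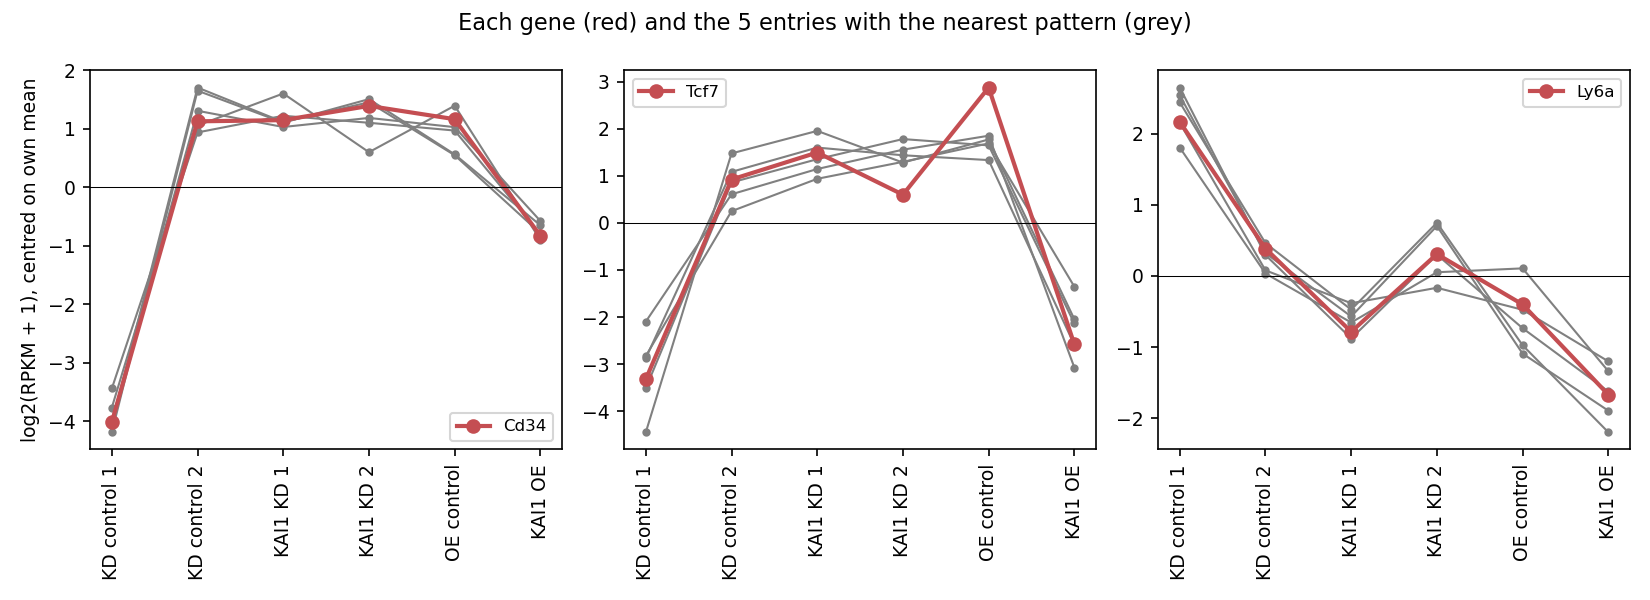
Pattern of Cd34, Tcf7 and Ly6a (red) and of the 5 nearest entries of each (grey) over the 6 libraries, as log2(RPKM + 1) centred on each gene's own mean (KD, knockdown; OE, overexpression). Cd34 and its neighbours are lowest in knockdown control 1, and Tcf7 stands above its neighbours in the overexpression control.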

How the data were processed

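Total RNA of 6 EML libraries was sequenced. The authors deposited 1 table of RPKM per library, per the file headers; TopHat2 2.0.9, Bowtie and Cufflinks with build mm9 are named in the submitters' processing notes, with no settings. Of 23170 entries, 24 repeats were dropped. RefSeq gave 22840 symbols and GENCODE 125, for names and transcript lengths only. Starts were moved to count from 1. Relative depth came from the steps between low values (15 of 15 pairs recovered in simulated data), and reads were estimated from it with GENCODE lengths over 394 entries (quartiles of 16820000 and 19430000 reads for knockdown control 1). No count test was run, since the values are not counts. The knockdown test used limma 3.58.1 (R 4.3.3) with its trend option; the values entered as log2(RPKM + 1), entries averaging under 1 RPKM were left out, and p-values were two-sided and Benjamini-Hochberg adjusted over all of them at 0.05. The fit was tested on simulated data with a spread far below that between the knockdown controls in Cd34 or Tcf7. That test does not show how the fit performs for such genes. This scale understates changes of low genes. Replicate numbers were not taken to pair the samples. Members and lists were chosen with earlier results of these data known. The text names the 10 members, the gene of each related list with the largest knockdown difference, the largest overexpression ratio and the highest mean, and the 5 nearest patterns of Cd34, Tcf7 and Ly6a; other genes were named after their values were seen, and some genes that this rule covers are not reported here. The related lists are surface receptors, RUNX, TCF/LEF, HOX and TALE, ETS with GATA and bHLH, MYC and other self-renewal factors. Alternatives were another pseudocount, no filter, quantile and median-ratio scaling, a replicate block and leaving out each library.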

Additional observations from a re-analysis of the deposited data

How the results depend on the processing

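Of the 9 members tested, limma called 0 with a pseudocount of 0.1, with no filter on low values, with quantile normalization and with median-ratio scaling. Over all entries it called 5 (4 lower) with the pseudocount of 0.1 and 0 (0 higher, 0 lower) with no filter, where 683 had an unadjusted p below 0.05; with quantile normalization 1 was called lower. With the replicate block it called 4, 1 higher and 3 lower, and 0 members; the numbers are not stated to mark pairs, and same-numbered deviations had r = -0.075 over 10113 entries. Leaving out 1 library gave from 0 to 1045 calls, 0 to 409 higher and 0 to 636 lower, and 0 to 3 members; it gave 16 without knockdown control 1, 1045 without knockdown control 2 and 0 without either knockdown library, where 88 and 58 had an unadjusted p below 0.05. Such fits assume that the lone library varies like the other pair, and the cause of the difference was not tested. Groups that do not overlap ran from 5561 to 8654 entries (5 to 8 members) with fewer libraries to separate, and numbered 3849 entries and 4 members after median-ratio scaling. Differences that changed sign with a library left out ranged from -0.38 to 0.33 for Runx1, -0.36 to 0.80 for Hhex, -2.17 to 0.38 for Cd93, -1.26 to 0.10 for Gata2 and -0.27 to 0.027 for Ctnnb1. Overexpression ratios kept their direction. With a pseudocount of 0.1, 5 members were at least 2-fold apart, and of all 9936 entries 623 were at least 2-fold higher and 683 lower. With the pseudocount of 1 these numbers were 4 members, 489 entries higher and 518 lower. Values of Tcf7 and Meis1 in knockdown control 1 rest on about 7 estimated reads each, so their folds are imprecise.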

Other observations

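A few genes at low levels differed between the arms or followed the order of Cd34, and were chosen after their values were seen. Thy1, a surface glycoprotein, stood at 0.84 and 0.432 RPKM in the overexpression control and the KAI1 overexpression and at most at 0.0621 RPKM in the knockdown arm. Col1a1, a collagen gene, stood at 1.63 and 0.873 RPKM there and at most at 0.0648 RPKM in the knockdown arm. Dntt, the terminal transferase of lymphoid progenitors, measured 0 and 1.75 RPKM without knockdown, 5.95 and 5.25 RPKM with it, and 2.91 against 0.304 RPKM in the overexpression arm. Slamf1, the stem cell marker CD150, measured 0 and 0.414 RPKM without knockdown, 1.16 and 1.49 RPKM with it, and 0.762 against 0.038 RPKM in the overexpression arm. Cebpa, a myeloid factor, measured 0.0399 and 0.959 RPKM without knockdown, 1.45 and 1.27 RPKM with it, and 4.11 against 4.58 RPKM in the overexpression arm.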
